A study of Mus musculus with 14 samples.

Results

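The genes described here are 10 genes tied to the 2-cell-like state of mouse embryonic stem cells: Tdpoz1, Tdpoz2, Tdpoz3, Tdpoz4, Tdpoz5, Zfp352, Zfp750, Arg2, Duxf3 and Pramel11. They were chosen by name, and all 10 were found among the 21887 protein-coding genes of the RefSeq annotation of GRCm38.p6, the assembly behind mm10. Each gene was taken with the 20 kb on either side of it, and the regions of 7 ChIP-seq peak lists that touched this window were collected. Chromatin came from E14 mouse embryonic stem cells, a cultured line kept in 2i+LIF medium, and 14 libraries fall into 7 groups of 2. Both p53 libraries are titled replicate 1, so the labels do not show whether they are separate replicates. An HA ChIP of tagged p53 and an HA ChIP of untagged cells form a pair, and input chromatin came from cells given doxorubicin. The labels do not say which treatment the HA libraries had received. H3K27ac and H3K9me3 were each profiled after 1 µM doxorubicin, a topoisomerase II poison that leaves DNA breaks, and after the DMSO vehicle. Exposure lasted 6 h, a drug-free period of another 6 h followed, and harvest came at 12 h. Each group has 1 list called on its pooled libraries, so no value here has a replicate check. All differences below compare pooled libraries, not replicated conditions.

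A small share of embryonic stem cells in culture passes for a time into a state that resembles the embryo at the 2-cell stage, with its own set of transcripts. Dux, a homeobox protein, is known as an activator of that state and of many of its genes. Acetylation of histone H3 at lysine 27 (H3K27ac) marks active promoters and enhancers, and trimethylation at lysine 9 (H3K9me3) marks heterochromatin, in which many repeats and multicopy gene clusters lie. p53 is a transcription factor that DNA damage stabilises. Because the state is rare in a culture, chromatin of a bulk sample reports mostly on cells outside it. More cells in the state and more mark per cell cannot be told apart in such data.

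The level of a region is its pileup, the number of overlapping fragments at its highest summit, per 1000000 fragments of the list, abbreviated FPM. In the HA lists the counts converted from the pileups of the regions described were even numbers only. A fragment thus appears to count more than once there, and converted HA values appear too high. HA levels are therefore given as deposited pileups, and HA values in the figures are on a scale of their own. The lists rest on 45238471 fragments for p53, 49588950 for the untagged ChIP and 16583331 for input. The H3K27ac lists rest on 17036528 after doxorubicin and 20647895 after vehicle, and the H3K9me3 lists on 14402634 after doxorubicin and 15992125 after vehicle. A region could be listed only above a minimum. The lowest summits had pileups of 14.66 for p53 and 16.05 for untagged, on the scale of the input depth. Those of the input list held 10 fragments. The lowest held 8 for doxorubicin H3K27ac and 9 for vehicle H3K27ac, and 7 for doxorubicin H3K9me3 and 8 for vehicle H3K9me3. A missing region therefore means a signal that was not called, not an absent one. The p53 list was called against a local background, so a p53 signal above its minimum could also go unlisted. Intervals in brackets are 95% exact intervals and cover counting error only. All 10 marker genes of embryonic stem cells had H3K27ac within 20 kb in both treatments, with medians of 5.61 FPM after doxorubicin and 6.78 after vehicle. Of 8 fibroblast genes, markers of feeder cells, 6 had it after doxorubicin (0.822 to 2.05 FPM) and 5 after vehicle (0.775 to 2.37 FPM), and their part in the results was not tested.

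The Tdpoz genes encode small proteins with a TRAF-like (MATH) domain and a POZ (BTB) domain, related to the ubiquitin ligase adaptor Spop. Some copies of the family share nearly all of their promoter sequence. RefSeq promoter windows of GRCm38.p6, from 250 bases before to 50 bases after the annotated start, were available for 6 of the 10 genes. The first pair shown is that of Tdpoz5 and of Tdpoz7, a copy outside the 10 genes, because both genes carried a p53 region at nearly the same place. The promoters of Tdpoz5 (chr3:93961265-93961564, minus strand) and Tdpoz7 (chr3:94072595-94072894, minus strand) share 299 of 300 bases. The difference is G179A, counted from 1 at the 5′ end with the base of Tdpoz5 first, and it is in capitals.
Tdpoz5: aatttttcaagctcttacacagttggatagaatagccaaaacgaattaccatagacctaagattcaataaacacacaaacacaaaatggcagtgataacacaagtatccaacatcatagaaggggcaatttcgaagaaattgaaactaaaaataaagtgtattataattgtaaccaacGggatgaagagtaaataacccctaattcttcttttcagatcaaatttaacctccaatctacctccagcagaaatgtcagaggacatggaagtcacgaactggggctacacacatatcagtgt
Tdpoz7: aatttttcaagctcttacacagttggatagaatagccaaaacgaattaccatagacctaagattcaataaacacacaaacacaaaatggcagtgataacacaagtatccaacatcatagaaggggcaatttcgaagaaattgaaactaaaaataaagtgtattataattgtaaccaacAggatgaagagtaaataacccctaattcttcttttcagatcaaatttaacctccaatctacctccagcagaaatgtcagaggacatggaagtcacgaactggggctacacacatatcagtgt
The promoters of Tdpoz1 and Tdpoz9 share 253 of 273 aligned bases (92.7%), and no other pair among the promoters available, those of Tdpoz1, Tdpoz4, Tdpoz5, Tdpoz7, Tdpoz8 and Tdpoz9, exceeded 63.6%. Tdpoz2 and Tdpoz3 were not compared, nor were the sequences of any listed region. Reads from stretches as alike as the closest pairs can fit several copies, and the sources used here do not give how the aligner placed them.

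The promoter of Duxf3 (chr10:58233040-58233339, minus strand) is shown because the only region found at this gene lay just downstream of it. The bases after the annotated start are in capitals.
Duxf3: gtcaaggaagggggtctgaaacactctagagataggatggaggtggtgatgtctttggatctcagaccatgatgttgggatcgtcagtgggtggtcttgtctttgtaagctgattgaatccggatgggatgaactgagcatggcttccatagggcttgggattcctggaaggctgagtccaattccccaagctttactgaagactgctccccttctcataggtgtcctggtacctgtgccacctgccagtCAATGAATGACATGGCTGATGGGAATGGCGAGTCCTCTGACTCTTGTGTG
The promoter of Zfp352 (chr4:90218570-90218869, plus strand) is shown because much of it is a tandem repeat and it carried no region in any list. The word GACAACACAC, the most frequent of its length in this promoter, is in capitals.
Zfp352: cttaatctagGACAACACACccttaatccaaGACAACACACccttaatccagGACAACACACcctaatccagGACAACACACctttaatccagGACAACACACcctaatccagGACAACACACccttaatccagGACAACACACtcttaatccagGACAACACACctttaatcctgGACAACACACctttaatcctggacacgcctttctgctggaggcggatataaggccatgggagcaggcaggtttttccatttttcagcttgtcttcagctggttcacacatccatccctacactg
The word occurred 9 times between bases 11 and 186. Searched on both strands, it occurred at least once in 17 of 32851 promoters (0.0517%), and 1 promoter, that of Zfp352, held it as often as 9 times.

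None of the 6 promoters overlapped a region of any of the 7 lists. The nearest region began 279 bp from the promoter window of Tdpoz5 (p53), 386 bp from that of Duxf3 (doxorubicin H3K27ac) and 450 bp from that of Tdpoz4 (doxorubicin H3K9me3). For Zfp352, Pramel11 and Tdpoz1 the nearest regions, all of doxorubicin H3K9me3, were 3449, 5645 and 22011 bp away. The half-site consensus of p53 was searched by its known degenerate form, which reads the same on both strands. It occurred in 1 of the 6 promoters, that of Tdpoz1, as GAGCAAGCCC at bases 245 to 254 across the annotated start, and in 2745 of all 32851 promoters (8.36%). The match is a string of letters, and no p53 region lay there.

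**Figure D1:**
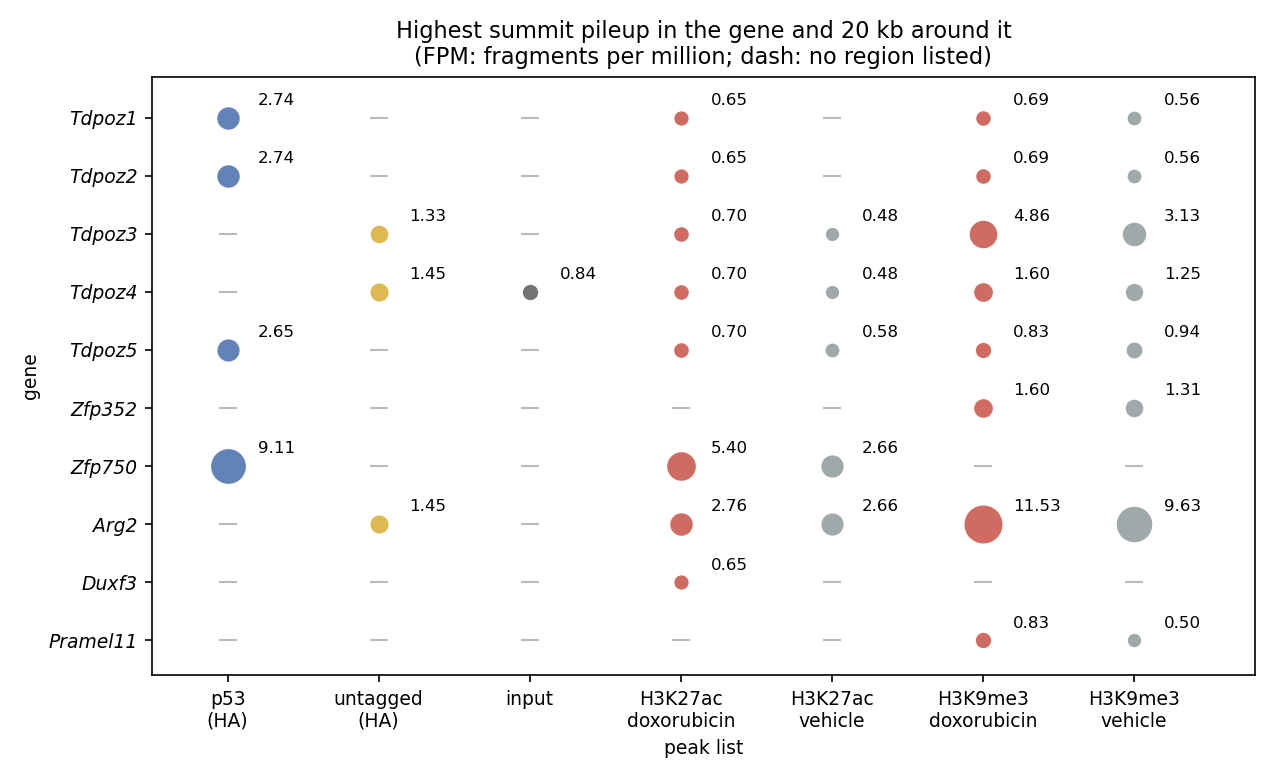
Highest summit pileup in FPM for each of the 10 genes (rows) in each of the 7 lists (columns), with circle area growing with the value and a dash where no region was listed within 20 kb. Zfp750 had the highest p53 value (9.11) and Arg2 the highest H3K9me3 values (11.5 after doxorubicin and 9.63 after vehicle). Tdpoz1 and Tdpoz2 share their regions, as do Tdpoz3 and Tdpoz4 in part. The p53 and untagged columns are on the scale of the HA lists and cannot be set against the histone columns.

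In the HA ChIP of tagged p53, 4 of the 10 genes had a region within 20 kb: Tdpoz1, Tdpoz2, Tdpoz5 and Zfp750. Among all protein-coding genes 32.3% did, so the share of the 10 genes is near that background. The 4 genes rest on 3 regions, since 1 region served both Tdpoz1 and Tdpoz2. In the untagged ChIP 3 of the 10 genes had a region, Tdpoz3, Tdpoz4 and Arg2, where the background was 7.49%. In the input 1 gene had one, Tdpoz4, where the background was 2.57%. No gene of the 10 had both a p53 and an untagged region, where 3.7% of protein-coding genes did. The p53 list was called against a local background and the untagged list against a genome-wide one. A region in 1 list and none in the other is therefore not a comparison at like settings. The 3 p53 regions overlapped no untagged or input region, as was so for 96.2% of the 11282 p53 regions.

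The strongest of these p53 regions lay beside Zfp750, which encodes a zinc finger protein whose human counterpart ZNF750 drives epidermal differentiation. Zfp750 (chr11:121510976-121519342) lies inside the annotated extent of Tbcd, a tubulin-folding cofactor gene. The region at chr11:121519525-121520025 began 183 bp beyond the higher-coordinate end of Zfp750 and had a pileup of 151.03 on the scale of the input depth. Its fold enrichment in the authors' list was 22.3 and its −log10 q 149.5, which ranked it 1873 of 11282. This is a site in the upper part of the list, and it lay wholly within an H3K27ac region in both treatments, over 501 bp.

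Both p53 regions at Tdpoz genes lay inside the gene. That of Tdpoz2 (chr3:93651542-93652686) covered chr3:93651955-93652563 and had a pileup of 45.46. That of Tdpoz5 (chr3:93960292-93961314) covered chr3:93960649-93960986 and had a pileup of 43.99. Their summits stood 509 and 496 bp from the higher-coordinate end of Tdpoz2 and Tdpoz5, which for Tdpoz5 is the annotated start. The copy Tdpoz7 had another such region, at chr3:94072053-94072308, with a summit 481 bp from its annotated start and a pileup of 38.12. The authors' fold enrichment was 6.64 at Tdpoz2 and 3.56 at Tdpoz7, and the regions of Tdpoz2, Tdpoz5 and Tdpoz7 ranked 6322, 6125 and 9329 of 11282 by q. The lowest pileup in the p53 list was 14.66. These are weak to middling entries of the list, in similar places of 3 related genes, and whether reads shared between copies link them was not tested. Inside the gene itself 2 of the 10 genes had a p53 region, where the background was 16.2%. Tdpoz1 (chr3:93669333-93676283) had its p53 region only through Tdpoz2, whose gene ends 16647 bp from it.

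**Figure D2:**
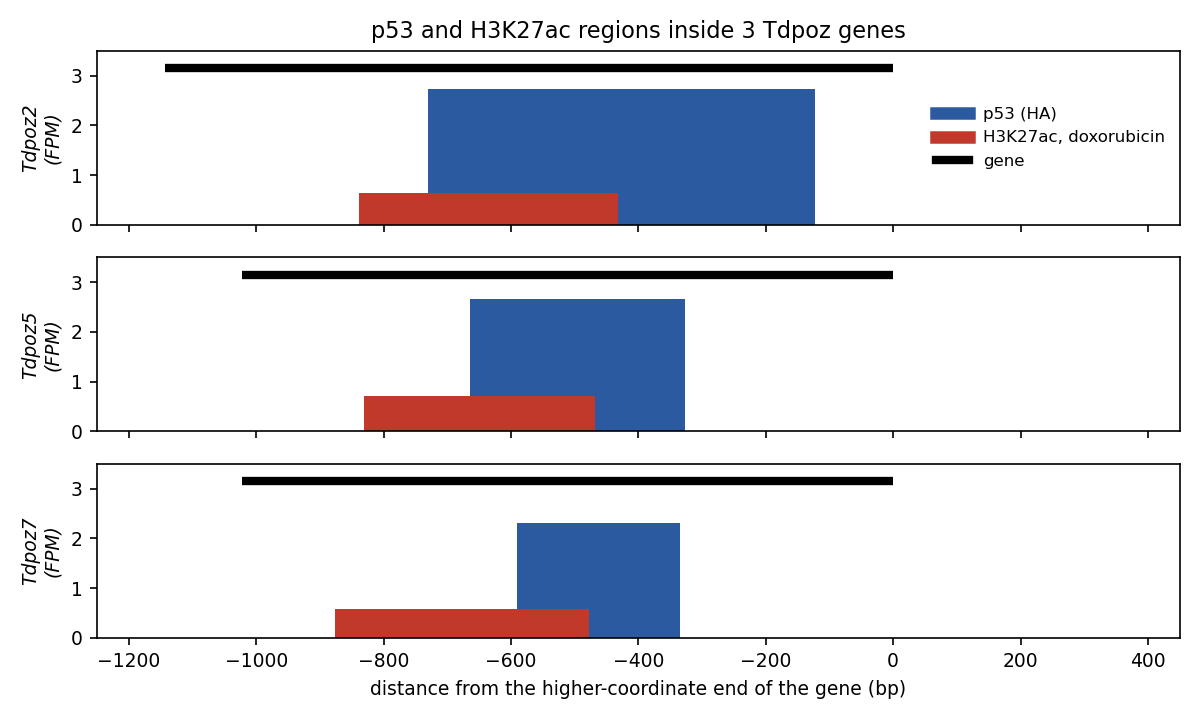
p53 regions (blue) and doxorubicin H3K27ac regions (red) at Tdpoz2, Tdpoz5 and Tdpoz7, drawn by distance in bp from the higher-coordinate end of each gene, with bar height the highest summit in FPM. The p53 summits lie 509, 496 and 481 bp inside that end, and each p53 bar overlaps an H3K27ac bar. The p53 heights are on the scale of the HA lists and cannot be set against the H3K27ac heights.

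Within the 1003.82 kb from Tdpoz8 to Tdpoz7 on chromosome 3, which holds 8 Tdpoz genes, the p53 list had 6 regions. The other 3 were not at Tdpoz genes. The strongest, at chr3:93543730-93544583 and outside annotated genes, had a pileup of 418.63. Another at chr3:93592059-93592541 had 103.37, so both stood above the Tdpoz regions. The last, inside Flg2, an epidermal protein gene, had 32.26 and overlapped an untagged region.

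The untagged regions clustered at Tdpoz3 (chr3:93826020-93827117) and Tdpoz4 (chr3:93796398-93797510). Tdpoz4 had 10 untagged regions, with pileups of 16.05 to 24.08, and Tdpoz3 had 3, with 16.05 to 22.07, and 1 region counted for both. A stretch of 112.892 kb around these genes, chr3:93761035-93873926, held 18 of the 19 untagged regions and all 4 input regions of the cluster. It held none of the p53 regions, which were called against a local background, where the untagged list had a genome-wide one. Its bounds are not those of the genes or their 20 kb windows. The counts depend on these bounds, so they describe the stretch and do not test a concentration of untagged regions. The 3 input regions at Tdpoz4 had 10, 11 and 14 fragments. Of the regions in that stretch, 9 of 30 for doxorubicin H3K9me3 and 10 of 33 for vehicle H3K9me3 overlapped an untagged region. The share over the whole H3K9me3 lists is not given here, so no excess can be read from these counts. The H3K9me3 values of Tdpoz3 and Tdpoz4 stand beside this signal without an antibody target, and its part in them was not tested. At Arg2 the untagged regions, with pileups of 22.07 and 24.08, both lay within its strong H3K9me3 region described below.

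H3K27ac was listed within 20 kb of 8 of the 10 genes after doxorubicin and of 5 after vehicle, where 82.1% and 77.1% of protein-coding genes had it. The genes with the mark in doxorubicin only were Tdpoz1, Tdpoz2 and Duxf3, 3 of 10, against 6.51% of protein-coding genes, and Tdpoz1 and Tdpoz2 again share 1 region. No gene had it in vehicle only (1.54% of protein-coding genes). All of the doxorubicin-only cases rest on 11 fragments, close to the minimum of the list. Zfp352 and Pramel11 had no H3K27ac region in either treatment.

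The region shared by Tdpoz1 and Tdpoz2 lay inside Tdpoz2, at chr3:93651847-93652253, with 11 fragments or 0.646 FPM (0.322 to 1.16). At the depth of the vehicle list, 11 fragments correspond to 13.3, and the lowest vehicle summit listed anywhere had 9. That lowest vehicle summit is 0.436 FPM, which lies within the interval, so counting error reaches below the vehicle minimum. The region overlapped the p53 region of Tdpoz2 over 299 bp, with summits 68 bp apart. At Tdpoz5 the doxorubicin list had 12 fragments inside the gene, at chr3:93960483-93960844, or 0.704 FPM, and this region overlapped the p53 region over 196 bp with summits 134 bp apart. The vehicle list also had 12 fragments at Tdpoz5, or 0.581 FPM, but 5396 bp beyond the gene, at chr3:93966710-93967138. The window value of Tdpoz5 thus compares different places, with a ratio of doxorubicin to vehicle of 1.21 (0.498 to 2.95). Each of the p53 regions in Tdpoz2, Tdpoz5 and Tdpoz7 overlapped an H3K27ac region of the doxorubicin list and none of the vehicle list. Of all 11282 p53 regions, 3380 (30.0%) did so. At Tdpoz7 the doxorubicin region had 10 fragments, or 0.587 FPM. The window of Tdpoz7 held a stronger vehicle region 8463 bp from the gene, with 35 fragments or 1.70 FPM, that had no doxorubicin counterpart in the window.

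Tdpoz3 and Tdpoz4 shared their highest H3K27ac regions, 12 fragments or 0.704 FPM after doxorubicin and 10 fragments or 0.484 FPM after vehicle. The ratio was 1.45 (0.576 to 3.76), and the regions did not overlap. At this depth no difference was detectable at Tdpoz3, Tdpoz4 or Tdpoz5.

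Zfp750 was the 1 gene of the 5 with H3K27ac in both lists whose highest value was at least 1.5-fold higher after doxorubicin, a step that 24% of the protein-coding genes with both passed. None of the 5 was lower by that much, where the background was 9.89%. Its summit over the gene's higher-coordinate end had 92 fragments after doxorubicin, or 5.40 FPM (4.35 to 6.62), against 55 after vehicle, or 2.66 FPM (2.01 to 3.47). The ratio was 2.03 (1.44 to 2.89), and 1.91 relative to the median ratio of 1.06 over 60027 H3K27ac regions matched between the treatments. The doxorubicin region was also longer, chr11:121519108-121523136 against chr11:121519199-121521267 after vehicle, with summits 8 bp apart. A second matched region beyond it had 23 fragments after doxorubicin and 10 after vehicle, a ratio of 2.79 (1.28 to 6.56). The overlap of this pair was only 227 bp and its summits stood 729 bp apart, so the ratio compares different places. A region inside the gene moved by less than its counting error, with 12 fragments after doxorubicin and 15 after vehicle and a ratio of 0.970 (0.414 to 2.22). In all, 11 regions covering 10730 bp were listed at Zfp750 after doxorubicin and 3 covering 3188 bp after vehicle. Of the 11, 8 had no vehicle counterpart, with 8 to 20 fragments each. Over the whole doxorubicin list 46.5% of H3K27ac regions had none.

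**Figure D3:**
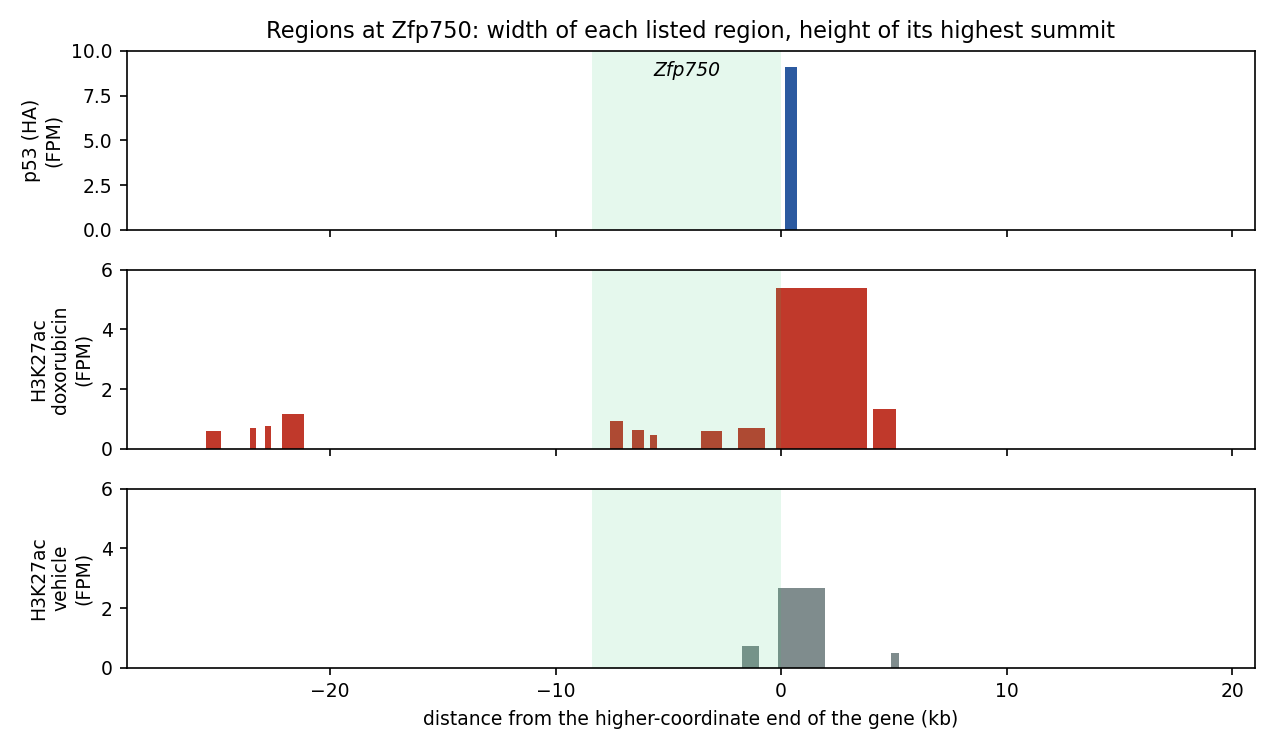
Regions at Zfp750 by distance in kb from the higher-coordinate end of the gene (shaded), for p53 (top), doxorubicin H3K27ac (middle) and vehicle H3K27ac (bottom), with bar width the region and bar height its highest summit in FPM. The p53 region, at 9.11, sits over the tallest H3K27ac region in both treatments, 5.40 after doxorubicin and 2.66 after vehicle. The p53 height is on the scale of the HA lists and cannot be set against the H3K27ac heights.

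Arg2 encodes arginase II, the mitochondrial enzyme that splits arginine into ornithine and urea. The gene (chr12:79130788-79156301) overlaps the lncRNA gene Gm40462 and the SNARE gene Vti1b. Its highest H3K27ac region stood 15774 bp beyond the gene in the doxorubicin list, over the far end of Vti1b, with 47 fragments or 2.76 FPM after doxorubicin and 55 fragments or 2.66 FPM after vehicle. The ratio of 1.04 (0.686 to 1.56) spans no change. Inside Arg2, at chr12:79155265-79155817, the doxorubicin list had a region of 15 fragments, or 0.880 FPM (0.493 to 1.45), with no vehicle counterpart.

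Duxf3 is the annotated copy of the Dux gene on chromosome 10 (chr10:58229505-58233089). A single region of any list touched its window, an H3K27ac region of the doxorubicin list inside the gene at chr10:58231919-58232654. It had 11 fragments, or 0.646 FPM (0.322 to 1.16), a −log10 q of 3.20 and a fold enrichment of 3.45 in the authors' list, with its summit 780 bp from the annotated start. It ranked 71852 of 112259 in its list, so it is a weak entry. No p53, untagged, input or H3K9me3 region was listed at Duxf3. Dux lies in repeated copies, and, as for the Tdpoz genes, how reads that fit several copies were placed is not known here.

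**Figure D4:**
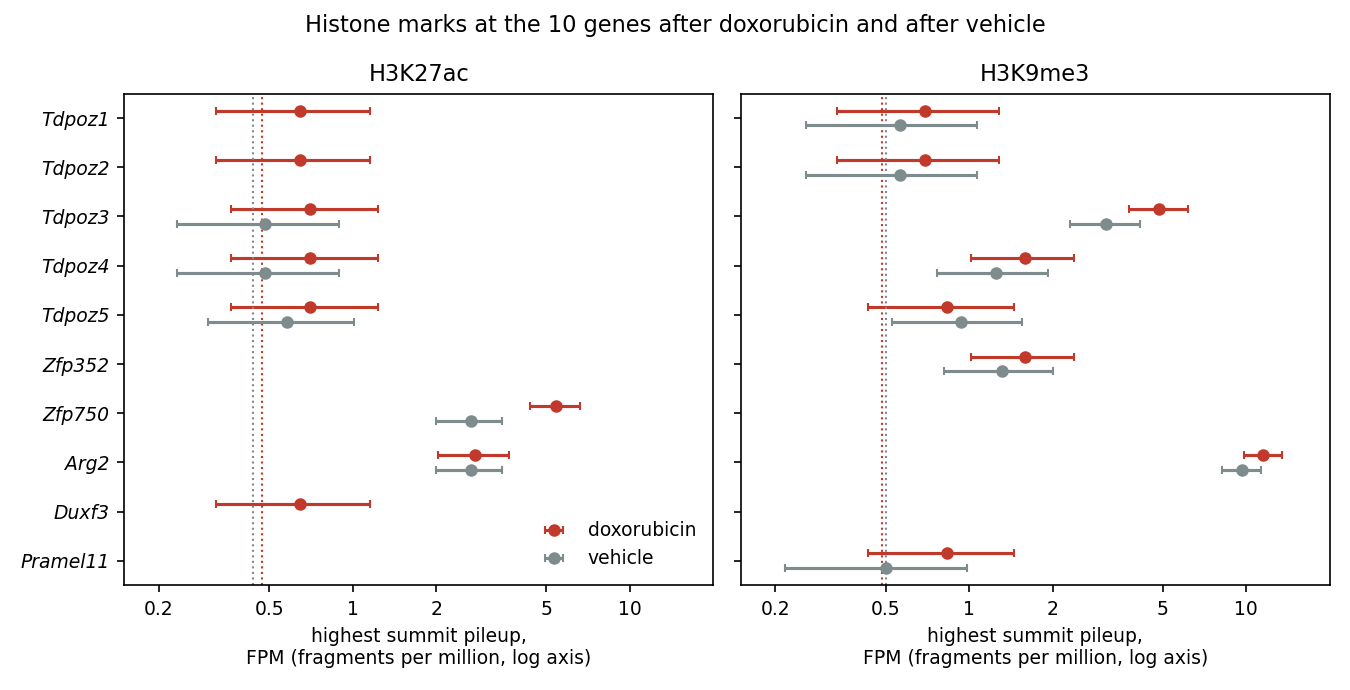
Highest summit pileup within 20 kb of each gene, in FPM on a log axis, for H3K27ac (left) and H3K9me3 (right), after doxorubicin (red) and after vehicle (grey). Bars are 95% counting intervals, dotted lines the lowest value listed in each list, and a missing point a gene with no region. The H3K27ac intervals of Zfp750 do not overlap, while at the Tdpoz genes the H3K27ac points lie near the dotted lines.

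H3K9me3 was listed within 20 kb of the same 8 genes after doxorubicin and after vehicle, all but Zfp750 and Duxf3. Among protein-coding genes 61.5% and 55.5% had it in those treatments. No gene had it in 1 treatment only, where the background was 8.72% for doxorubicin only and 2.75% for vehicle only. Over 51829 regions matched between the treatments the median ratio of doxorubicin to vehicle was 1.23, a shift of 0.30 on the log2 scale, so ratios are also given relative to it. At least 1.5-fold higher after doxorubicin were 2 of the 8 genes, Tdpoz3 and Pramel11, against 24.4% of protein-coding genes with the mark in both. Relative to the median none of the 8 reached that step. None was lower by 1.5-fold, against 1.75% of protein-coding genes.

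The highest H3K9me3 among the 10 genes was that of Arg2, below the lower-coordinate end of the gene at chr12:79111946-79119306 after doxorubicin and at chr12:79111222-79118548 after vehicle. It had 166 fragments after doxorubicin, or 11.5 FPM (9.84 to 13.4), and 154 after vehicle, or 9.63 FPM (8.17 to 11.3). The region covers Gm8255, an annotated pseudogene, and ranked 155 of 78890 after doxorubicin and 142 of 60836 after vehicle, so it is among the strongest of both lists. Both lists were called with no control. An untagged summit lay 31 bp from the doxorubicin summit and 33 bp from the vehicle summit, and its part in these levels was not tested. The ratio of doxorubicin to vehicle was 1.20 (0.955 to 1.50), or 0.973 relative to the median. Inside Arg2 both lists had only weak H3K9me3, 12 fragments after doxorubicin and 9 after vehicle, at places that did not overlap.

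Tdpoz3 came next. Its highest summits had 70 fragments after doxorubicin, or 4.86 FPM (3.79 to 6.14), and 50 after vehicle, or 3.13 FPM (2.32 to 4.12). The ratio was 1.55 (1.07 to 2.28), or 1.26 relative to the median. These summits lie in different regions. The doxorubicin one, at chr3:93830276-93838908, matched a vehicle region of nearly the same extent with 42 fragments, a ratio of 1.85 (1.24 to 2.78). The vehicle one, at chr3:93842970-93848064, matched a doxorubicin region with 54 fragments, a ratio of 1.20 (0.801 to 1.80). Ratios were larger at some of the smaller regions beside the gene and smaller at others. At chr3:93824111-93825492 there were 31 fragments after doxorubicin and 11 after vehicle, a ratio of 3.13 (1.53 to 6.90), or 2.54 relative to the median. The summits of this pair stood 969 bp apart, so the ratio compares different places. Its doxorubicin region also overlapped an untagged region over 379 bp. At chr3:93818476-93818903 there were 25 after doxorubicin and 12 after vehicle, a ratio of 2.31 (1.12 to 5.05). The other smaller matched regions beside the gene had ratios of 0.914 to 1.11, or 0.743 to 0.902 relative to the median. The region over the body of Tdpoz3 had 25 fragments after doxorubicin and 15 after vehicle, a ratio of 1.85 (0.938 to 3.78). In the window 12 regions covered 22775 bp after doxorubicin, and 15 covered 21336 bp after vehicle, so the covered length hardly differed.

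**Figure D5:**
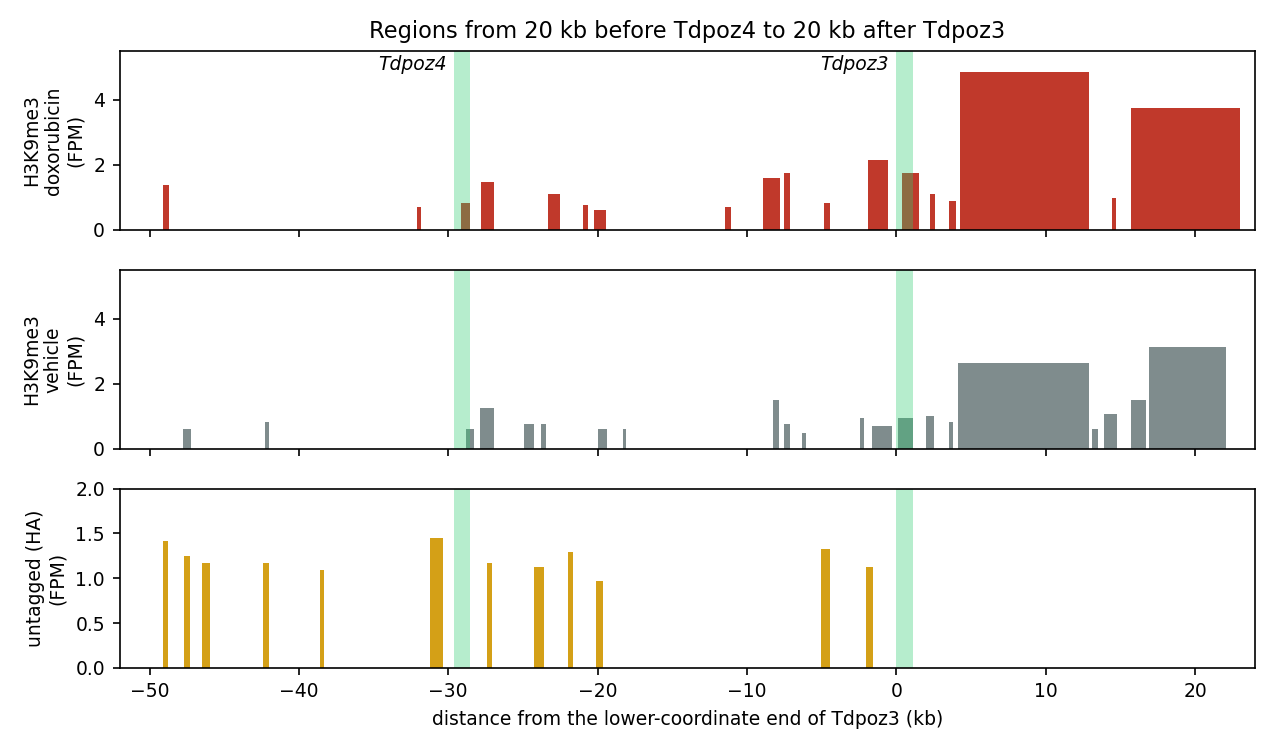
H3K9me3 regions after doxorubicin (top) and after vehicle (middle) and untagged HA regions (bottom) across Tdpoz4 and Tdpoz3 (shaded), by distance in kb from the lower-coordinate end of Tdpoz3, with bar height the highest summit in FPM. The tallest H3K9me3 regions, 4.86 after doxorubicin and 3.13 after vehicle, lie beyond Tdpoz3, where no untagged region is listed within the window, the nearest further out being 27812 bp from the gene. Around Tdpoz4 both kinds of region are interspersed. Untagged heights are on the scale of the HA lists and cannot be set against the H3K9me3 heights.

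The other Tdpoz genes had less of the mark. At Tdpoz4 the highest H3K9me3 was 1.60 FPM after doxorubicin, from 23 fragments, and 1.25 after vehicle, from 20, a ratio of 1.28 (0.671 to 2.45). These are different places, since the doxorubicin region lay 19582 bp from Tdpoz4 and its vehicle match of 24 fragments, a ratio of 1.06 (0.574 to 1.97), lay 20257 bp away and outside the window. Over the body of Tdpoz4 itself there were 12 fragments after doxorubicin and 10 after vehicle. Tdpoz1 and Tdpoz2 had 10 fragments after doxorubicin and 9 after vehicle in regions that did not overlap, a ratio of 1.23 (0.451 to 3.43). At Tdpoz5 there were 12 fragments after doxorubicin and 15 after vehicle, on opposite sides of the gene, a ratio of 0.888 (0.380 to 2.03). None of these ratios was beyond counting error. Among these 5 genes the H3K9me3 level thus ran from Tdpoz3 through Tdpoz4 to Tdpoz5 and the pair Tdpoz1 and Tdpoz2 in both treatments, and from Tdpoz4 downward the counting intervals of neighbours in this order overlapped. Of the copies outside the 10 genes, Tdpoz8 had 3.89 FPM after doxorubicin and 2.56 after vehicle and Tdpoz9 had 3.06 FPM after doxorubicin and 1.88 after vehicle, levels between those of Tdpoz3 and Tdpoz4, and Tdpoz7 had no H3K9me3 region.

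Zfp352 encodes a zinc finger protein of the early embryo. The gene (chr4:90218820-90225687) had H3K9me3 as its only mark. Its highest summits had 23 fragments after doxorubicin, or 1.60 FPM (1.01 to 2.40), and 21 after vehicle, or 1.31 FPM (0.813 to 2.01). The ratio was 1.22 (0.643 to 2.31), or 0.988 relative to the median. The strongest regions lay just past the higher-coordinate end, and 7 regions covered 6257 bp after doxorubicin while 4 covered 5404 bp after vehicle. Of those after doxorubicin, the regions at chr4:90222318-90222616 and chr4:90223777-90224254 lay inside the gene, each with 9 fragments, and no vehicle region did.

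Pramel11 (chr4:143894237-143900380) belongs to the PRAME family of leucine-rich repeat proteins. It had H3K9me3 only, with 12 fragments after doxorubicin, or 0.833 FPM (0.431 to 1.46), and 8 after vehicle, or 0.500 FPM (0.216 to 0.986). The ratio of 1.67 (0.626 to 4.70) spans no change. Inside the gene a region of 10 fragments at chr4:143894405-143894686 was listed after doxorubicin and none after vehicle.

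The 10 genes thus differed among themselves in which marks were listed. Zfp750 had p53 and H3K27ac but no H3K9me3, Zfp352 and Pramel11 had H3K9me3 alone, and Duxf3 had H3K27ac alone. Tdpoz1, Tdpoz2 and Tdpoz5 had p53 with both marks, and Tdpoz3, Tdpoz4 and Arg2 had untagged regions with both. As a group, their median ratio of doxorubicin to vehicle was 1.45 for H3K27ac over 5 genes, beside 1.07 over 16535 protein-coding genes. That median is the value shared by Tdpoz3 and Tdpoz4, from regions of 12 and 10 fragments that do not overlap, with the interval given above (0.576 to 3.76). For H3K9me3 it was 1.23 over 8 genes, beside 1.26 over 11550. The genes were short, with a median length of 4864.5 bp against 17169 bp for protein-coding genes, so their windows were smaller targets.

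Genes with the most similar levels over the 7 lists, by the Euclidean distance of log2(FPM + 1) with unlisted values at 0, were sought more than 1 Mb away for each gene listed in at least 3 lists. This is a description with no test, and the HA values entered it as converted, on their own scale. The nearest to Zfp750 was Rbm34, at a distance of 0.0901. It had 5.22 FPM for doxorubicin H3K27ac, 2.47 FPM for vehicle H3K27ac and, on the HA scale, 9.24 for p53. Prol1 was nearest to Tdpoz1 and Tdpoz2 (0.219), Pgr to Tdpoz5 (0.183), Ly9 to Tdpoz4 (0.221), Rsph3a to Tdpoz3 (0.339) and Ltn1 to Arg2 (0.433). Of the 3 nearest genes to each, Gm5662, the third nearest to Tdpoz4 (0.612), belongs to the list described next.

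A further list of genes of the state, without the Zscan4 genes, gave 46 annotated genes beside the 10. Within 20 kb 11 of the 46 had a p53 region: Usp17le, Eif4a3l1, Pramel13, Sp110, Nat8f2, Ddit4l, Duxbl1, Cphx1, Pramel17, Tdpoz7 and Tdpoz9. Duxbl1 and Cphx1 shared their p53 regions, and Tdpoz9 had its p53 region only through Tdpoz7. An untagged region was found at 6 and an input region at 4. The protein-coding backgrounds are those given above, 32.3%, 7.49% and 2.57%. H3K27ac was listed at 32 of the 46 after doxorubicin and at 24 after vehicle, beside 82.1% and 77.1% of protein-coding genes. It was in doxorubicin only at 8 genes, Usp17le, Tcstv1, Gm2022, Gm20767, Tmem92, Obox3, Usp26 and Tdpoz9, beside 6.51% of protein-coding genes. The region of Tdpoz9 was the one inside Tdpoz7. In vehicle only H3K27ac was at 0, beside 1.54%. Of the 24 with both, 5 were at least 1.5-fold higher after doxorubicin, beside a background of 24%, and 6 lower, beside 9.89%, with a median ratio of 0.933. H3K9me3 was listed at 36 after doxorubicin and at 33 after vehicle, beside 61.5% and 55.5% of protein-coding genes. Usp17lb, Eif4a3l1 and Zfp353-ps had it in doxorubicin only, beside 8.72%. In all, 11 of the 33 with both were higher, beside 24.4%, and 0 lower, beside 1.75%, and the median ratio was 1.27. Duxbl1 and Cphx1, both among the 11, shared their H3K9me3 regions. Among those higher for H3K27ac, Sp110, an interferon-induced nuclear body gene, had 3.05 FPM after doxorubicin and 0.823 after vehicle. Its strongest p53 region had a pileup of 505.87 and overlapped an untagged one. Ddit4l, a stress-induced inhibitor of mTOR signalling, had 4.40 FPM after doxorubicin and 1.74 after vehicle, beside a p53 region with a pileup of 85.78.

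The window of 20 kb decided some listings. Just inside it lay an H3K9me3 region of Arg2 after vehicle, 19954 bp from the gene with 1.13 FPM. So did an H3K9me3 region of Tdpoz4 after doxorubicin at 19582 bp with 1.60 FPM, and an untagged region of Tdpoz3 at 19620 bp with a pileup of 16.05. Just outside lay H3K9me3 regions after doxorubicin, at 20248 bp from Arg2 with 1.46 FPM and at 20677 bp from Tdpoz3 with 0.764 FPM, and an H3K9me3 region after vehicle at 20257 bp from Tdpoz4 with 1.50 FPM.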

How the data were processed

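ChIP-seq of 14 libraries in 7 groups of 2 was used as 7 narrow-peak lists, each called by the authors on the pooled libraries of a group, so groups were compared list by list and no replicate test or p-value was possible. The submitters' processing notes name Bowtie2 2.2.6 and MACS2 2.2.5. Per the file headers, the index was mm10 plus 1 contig, fragments were paired, duplicates beyond 1 were dropped and the cutoff on q was 0.05. Also per the file headers, histone and input lists were called with no control, and both HA lists against the input, untagged with a genome-wide and p53 with a local background, so p53 and untagged calls were made under different settings. As signal the authors deposited the fragment pileup at each summit, scaled to the input depth in the HA lists. The fold enrichment is the authors' ratio of pileup to background, and q is deposited as −log10.

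Summits of an interval were joined, keeping the highest, and pileups were converted to fragments and divided by the depth of the list. All values came out as whole fragments within the rounding of the files, but those of the HA regions described were even numbers only. Whole numbers therefore do not show that the HA conversion is right, and HA levels are given as deposited pileups. Regions were matched by an overlap of at least 1 bp. A gene was called different at 1.5-fold, and the same rules over 21887 protein-coding genes gave the background. Poisson and conditional binomial intervals are exact at 95% and cover counting error only. Alternatives changed the window, the q and fold thresholds, the list lengths, the overlap, the scaling and the fold called. Overlap counting was tested on simulated data. Genes and promoters came from RefSeq tables of GRCm38.p6, which give gene extents and no exons. The genes described and the further list were chosen with earlier results of these data known. Named were all 10 genes, genes of the further list that had p53 or that had a histone mark in a single treatment, genes overlapping a region, and the 3 genes of the most similar levels per gene, of which the nearest are given. Others were chosen after their values were seen. The tools were pandas 2.3.3, numpy 2.4.6, scipy 1.17.1 and matplotlib 3.10.9 under Python 3.11.15.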

Additional observations from a re-analysis of the deposited data

How the results depend on the processing

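No paired analysis was possible because both libraries of a group were pooled before peak calling, and for the same reason no replicate could be left out. Of 110 alternative values, 79 stayed within 1.5 times the count reported and 31 did not. The 79 include counts of 0 beside a reported 0, as for either mark lower after doxorubicin. Some of these could not move, so the tally overstates the stability of the other counts. Shares over protein-coding genes are given only at 20 kb, and for p53 in the gene itself (16.2%). The other gene counts below therefore show how the calls moved and cannot be set against a background at the same setting. With the gene alone in place of the 20 kb window, 2 of the 10 genes had a p53 region and 0 an untagged one, and 21 of the 46 further genes had any region and 4 a p53 region, which 5 had within 5 kb. H3K27ac in doxorubicin only was found at 5 genes within 5 kb, at 1 within 50 kb, and at 0 with a −log10 q of at least 5 or a fold enrichment of at least 4, so these cases do not outlast a stricter threshold. H3K27ac higher after doxorubicin was found at 2 genes within 50 kb. Doxorubicin H3K27ac regions without a vehicle counterpart, 15 of 19 regions (46.5% of the whole list had none), numbered 8 in the gene alone, 9 within 5 kb, 28 within 50 kb, 4 at the stricter q and 5 at the stricter fold. H3K9me3 in doxorubicin only, 0 within 20 kb, was found at 2 genes for the gene alone and at 1 within 5 kb, at the stricter q and at the stricter fold, and in vehicle only at 2 genes with equal numbers of regions. H3K9me3 higher after doxorubicin, 2 genes within 20 kb, was found at 1 for the gene alone, within 5 kb, at the stricter q and at the stricter fold, and at 0 within 50 kb, relative to the median ratio and with a 2-fold step. Doxorubicin H3K9me3 regions without a vehicle counterpart, 14 of 33 regions (34.3% of the whole list), numbered 4 in the gene alone, 7 within 5 kb, 30 within 50 kb and 8 with equal numbers of regions. The cause of these changes was not tested, beyond the smaller or larger windows and lists themselves. Depth limits what can be seen at Tdpoz1, Tdpoz2, Tdpoz5, Pramel11 and Duxf3, where the histone regions hold 8 to 15 fragments.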

Other observations

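Regions near Tcstv3, a gene of the 2-cell-like state outside the 10 genes that was chosen after its values were seen, had higher H3K9me3 in both treatments, and higher H3K27ac after vehicle, than any of the 10. H3K9me3 reached 201.6 FPM after doxorubicin and 165.1 FPM after vehicle. H3K27ac within 20 kb of Tcstv3 reached 0.704 FPM after doxorubicin and 53.2 FPM after vehicle, where the 10 genes ran up to 5.40 after doxorubicin and 2.66 after vehicle. These are different places, chr13:120312770-120313582 in the doxorubicin list and chr13:120321388-120321655 in the vehicle list. The vehicle H3K27ac summit, at position 120321544, nearly coincides with the H3K9me3 summits at 120321543 after doxorubicin and 120321542 after vehicle. Tcstv3 had no p53, untagged or input region.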
